A study of Mus musculus with 8 samples.

Results

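A set of 1893 ATAC-seq peaks stood at least 75% higher in Chd7-mutant than in wild-type cerebellar granule neuron progenitors (GNPs), although both genotypes held a called peak at each place. ATAC-seq marks open chromatin, because the Tn5 transposase inserts sequencing adapters where DNA is not wrapped around nucleosomes. The peaks were selected on their heights: autosomal peaks of the mutant list with a pileup of 20 or more overlapping fragments were set against the tallest overlapping WT peak, and kept where the mutant pileup per sequenced tag was at least 75% above that of WT. Of 66077 shared peaks to which this rule applied, 1893 were kept, which is 2.86% of them. WT and mutant heights therefore chose the peaks, and are given below as a description with no test.

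The cells came from P7 pups of 3 genotypes, with WT Chd7 f/f, mutant Atoh1-Cre::Chd7 f/f and het Atoh1-Cre::Chd7 f/+ per the study's methods. The labels give the strain as C56Bl6/J, and the methods as C57BL/6N. The 3 WT and the 3 mutant libraries are described as technical replicates, the het group had 2 libraries, and the authors pooled the libraries of a group before calling its peaks. No value below has a replicate error, and genotype cannot be told apart from the library pool. Cre from the Atoh1 driver acts in granule cell precursors and other rhombic lip derivatives, the controls are written without Cre, and the sexes of the pups were not distinguished. Some Chd7 protein is described as left in the posterior lobe of the mutant, so the mutant pool may hold cells that kept the gene.

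Chd7 is an ATP-dependent nucleosome remodeller that slides nucleosomes at enhancers and promoters. Granule neuron progenitors divide in the external granule layer after birth under Sonic hedgehog from Purkinje cells, leave the cell cycle, and migrate inwards as granule neurons. Their identity depends on Atoh1, a basic helix-loop-helix factor that binds E-box sequences, often at enhancers away from promoters.

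Depth was similar for both lists that defined the set, with 50394313 WT tags and 51030229 mutant tags after filtering, against 30923002 for het. Tags were 76 bp long in mutant and 107 bp in the other lists, and WT and mutant fragments were extended to 90 bp and 88 bp, against 200 bp for het. Het heights were therefore compared only through peak overlap, through rank, or against other het heights. The het over WT ratio at Atoh1 was set only against the same ratio at other peaks. Het fragments printed below beside mutant and WT fragments are raw counts at another depth and extension. They are not to be compared with the mutant or WT counts of the same peak. Promoter peaks, with a summit within 1 kb of a transcription start site (TSS), were found at 7 of 8 GNP markers in WT and at 8 of 8 in mutant. At markers of other cerebellar cell types, 17 of 21 had a promoter peak in WT and 16 of 21 in mutant. Median promoter heights of these other markers were 5.36 fragments per 10000000 tags in WT and 5.88 in mutant, against 8.73 and 8.13 for the GNP markers. These medians are over unlike markers. Zic2 had a promoter peak in mutant (6.27) and none in WT, and Csf1r in WT (3.17) and none in mutant. No change between the genotypes can be read from them. The part of other cells in the set was not tested. Of all these markers, Gad2 and Pdgfra alone held a peak of the set, each away from its promoter.

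The sequences below are those of members with the highest ratios, with the highest pileups, in named genes of the hedgehog pathway and of neuronal differentiation, or, for Taf3, in a gene with several members. Each is the 120 bases around the mutant summit on the plus strand of mm10 (RefSeq GRCm38.p6). Capitals mark CAGATG or its reverse complement CATCTG, an E-box bound by proneural basic helix-loop-helix factors, and TAATTA, a core read by many homeodomain factors.
near Gm48722, chr10:12174583-12174702: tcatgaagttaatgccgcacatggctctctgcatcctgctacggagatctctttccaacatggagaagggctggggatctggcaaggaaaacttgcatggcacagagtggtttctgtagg
Cfap54 intron, chr10:92854824-92854943: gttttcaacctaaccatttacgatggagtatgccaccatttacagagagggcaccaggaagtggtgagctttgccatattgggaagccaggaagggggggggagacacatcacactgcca
Cntn1 intron, chr15:92322340-92322459: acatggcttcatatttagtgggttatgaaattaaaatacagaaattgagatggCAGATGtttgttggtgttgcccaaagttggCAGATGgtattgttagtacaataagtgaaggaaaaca
near Gm37114, chr1:82157164-82157283: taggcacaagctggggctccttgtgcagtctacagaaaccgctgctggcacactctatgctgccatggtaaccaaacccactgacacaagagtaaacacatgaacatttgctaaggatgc
near Gm37997, chr19:15230695-15230814: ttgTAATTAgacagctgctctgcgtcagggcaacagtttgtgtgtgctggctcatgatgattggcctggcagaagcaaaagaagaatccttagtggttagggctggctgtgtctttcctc
near Platr19, chr12:12776998-12777117: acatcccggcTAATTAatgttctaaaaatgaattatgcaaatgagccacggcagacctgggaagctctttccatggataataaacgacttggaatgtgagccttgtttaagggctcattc
near 4933423L19Rik, chr7:69890739-69890858: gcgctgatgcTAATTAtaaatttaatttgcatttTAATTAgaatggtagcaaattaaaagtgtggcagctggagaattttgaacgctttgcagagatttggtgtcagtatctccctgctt
Fat3 intron, chr9:16212311-16212430: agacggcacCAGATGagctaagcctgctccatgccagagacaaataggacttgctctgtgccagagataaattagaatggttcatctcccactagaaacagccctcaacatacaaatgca
near Spag17, chr3:99778639-99778758: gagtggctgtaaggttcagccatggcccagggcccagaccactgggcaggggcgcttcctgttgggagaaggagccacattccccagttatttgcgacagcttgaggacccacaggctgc
Taf3 intron, chr2:10035124-10035243: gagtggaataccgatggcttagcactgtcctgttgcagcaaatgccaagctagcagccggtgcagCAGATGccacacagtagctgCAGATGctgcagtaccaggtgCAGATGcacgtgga
Gli3 intron, chr13:15517215-15517334: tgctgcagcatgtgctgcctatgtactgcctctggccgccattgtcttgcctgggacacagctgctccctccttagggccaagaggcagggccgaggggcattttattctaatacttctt
Ptch1 intron, chr13:63552007-63552126: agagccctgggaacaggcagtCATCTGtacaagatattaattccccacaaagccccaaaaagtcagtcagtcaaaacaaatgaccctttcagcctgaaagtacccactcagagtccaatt
Reln intron, chr5:21948076-21948195: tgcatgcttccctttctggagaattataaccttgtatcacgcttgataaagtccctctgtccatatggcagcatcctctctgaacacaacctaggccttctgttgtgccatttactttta
Plxna2 intron, chr1:194630777-194630896: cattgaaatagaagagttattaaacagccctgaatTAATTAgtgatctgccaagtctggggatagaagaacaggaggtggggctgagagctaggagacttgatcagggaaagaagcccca
The Cntn1 intron held CAGATG in 2 copies, the Taf3 intron in 3, and the peak near 4933423L19Rik held TAATTA in 2. The windows near Gm48722, Gm37114 and Spag17 and in the introns of Cfap54, Gli3 and Reln held neither. These matches describe the letters and say nothing of which factor was bound.

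Peaks of the set were of moderate height in the mutant and low in WT. Mutant pileups ran from 20 to 59 fragments with a median of 26, whereas the WT partners ran from 7 to 33 with a median of 13. The median ratio per tag was 1.93, with an interquartile range of 1.82 to 2.1 and a maximum of 4.06, against a median of 1.07 over all 66077 shared peaks tested. Most ratios lay close to the threshold, since 1213 of 1893 (64.1%) were under 2, 108 reached 2.5 and 11 reached 3. A 95% exact binomial interval of the ratio, which covers counting error of the fragments only, lay above 1 for 799 of 1893 peaks (42.2%) and above the threshold itself for 2. These intervals use the pileups that chose the peaks, so the counts describe precision and are no test of a difference. Just inside the threshold, 10 peaks shared a ratio of 1.7506, among them an intronic peak of Rhobtb1 with 39 mutant and 22 WT fragments. Just outside, an intronic peak of Crb1 had 62 mutant and 35 WT fragments and a ratio of 1.7494.

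**Figure D1:**
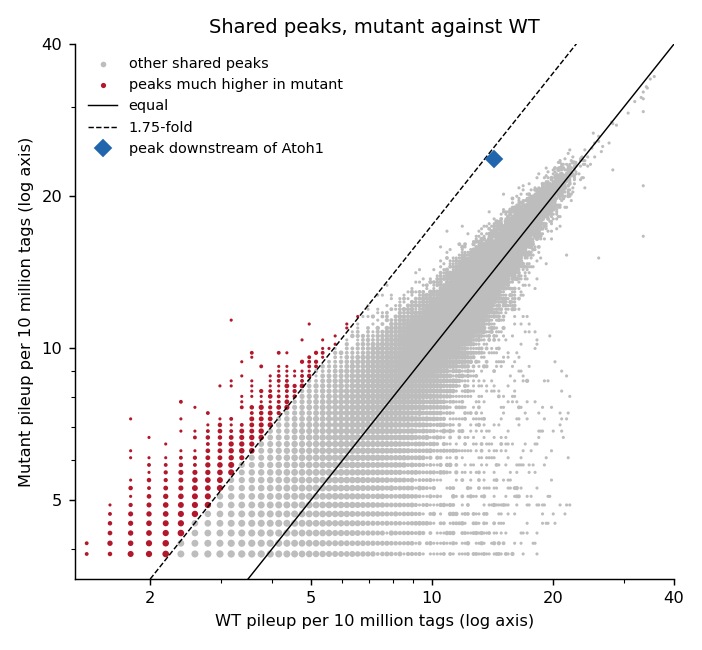
Mutant pileup against WT pileup per 10000000 tags, both on log axes, for the shared peaks with a mutant pileup of 20 or more, with point size growing with the number of peaks at a position. The 1893 peaks of the set (red) lie above the dashed line of the threshold, none of them has a mutant pileup of 60 or more, and the peak downstream of Atoh1 (blue diamond, ratio 1.66) lies just under that line, apart from peaks of like height.

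The share of shared peaks that entered the set fell with height. Among peaks of mutant pileup 20 to 24, 784 of 16745 (4.68%) entered, and of those with 25 to 29, 557 of 11851 (4.70%). The share was 2.84% at 30 to 39 and 0.923% at 40 to 59. No peak of 60 or more fragments entered, of 8150 with 60 to 99 and 534 with 100 or more. The median ratio itself stayed between 1.04 and 1.1 in these bins. Counting error of a ratio grows as heights fall, and its part in this trend was not tested.

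Mutant peaks of the set were also wider than their WT partners, with a median of 290 bp against 208 bp, and the mutant peak was the longer one in 1443 of 1893 (76.2%, Wilson 95% CI 74.3 to 78.1%). Over all shared peaks tested, medians were 397 bp in mutant and 412 bp in WT, and 51.5% were longer in mutant. Width follows height in a peak call, so it is not a separate readout. Summits lay at the same place in both lists, with a median distance of 30 bp and 1697 of 1893 (89.6%) within 100 bp, the same share as over all peaks tested. The converse set, with WT at least 75% above mutant, held 807 peaks, of which 143 had summits within 100 bp of each other. It also required 20 or more mutant fragments, so its WT partners had 35 or more. WT partners of the set went down to 7, so the sizes of both sets cannot be compared. Of peaks away from TSS, with summits within 100 bp and both pileups averaging 15 to 25, 610 had WT at least 75% higher. Among the same peaks, 1224 had mutant at least 75% higher.

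Peaks of the set lay mostly in introns and between genes. Their summits were intronic in 893 cases (47.2%, CI 44.9 to 49.4%), intergenic in 800 (42.3%, CI 40.1 to 44.5%), within 1 kb of a TSS in 138 (7.29%, CI 6.20 to 8.55%) and in other exons in 62 (3.28%). All shared peaks tested were at a TSS in 27.6% (CI 27.2 to 27.9%), and the other shared peaks of mutant pileup 20 to 29 in 15.5% (CI 15.1 to 15.9%). Promoters were thus fewer in the set also among peaks of like height in the mutant. At like WT height the gap was smaller: of WT partners with 7 to 10 fragments, 5.28% of the set and 5.54% of the other shared peaks were at a TSS, and of those with 17 to 33 fragments, 9.38% and 15.1%. The others in these bins include peaks with under 20 mutant fragments, and at 7 to 10 WT fragments consist of them. The median distance to the nearest TSS was 19200 bp in the set and 9280 bp over all shared peaks tested. In the converse set, 56.5% of the 807 peaks were at a TSS, but 3.5% (CI 1.5 to 7.92%) of the 143 with summits within 100 bp. Of these 143 peaks 57.3% were intergenic, so a low share at a TSS was not particular to the set.

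**Figure D2:**
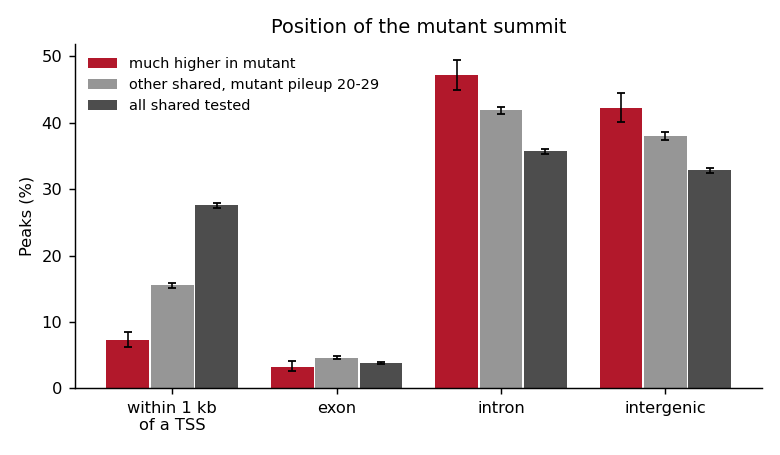
Share of peaks by position of the mutant summit, in percent, with Wilson 95% intervals as bars, for the 1893 peaks of the set, for the other shared peaks with a mutant pileup of 20 to 29 and for all 66077 shared peaks tested. TSS peaks made up 7.29% of the set, 15.5% of the others of like height and 27.6% of all.

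The het list was not used by the rule. The median rank, as the percent of a list's peaks at or below a pileup, was 38.3 in WT and 73.8 in mutant over all 1893 peaks. In het it was 41.7 over the 1611 peaks of the set that overlapped a het peak. For the other shared peaks of mutant pileup 20 to 29, the WT and mutant medians were 66.3 and 70.6 over 27255 peaks. Their het median was 55.4 over the 24087 with a het peak. By peak, the het rank lay between the other 2 in 991 cases, below WT in 615 and above mutant in 5, and ranks depend on how many weak peaks each list holds, since the lists held 152984 WT, 174407 mutant and 106974 het peaks. No likeness to WT or to mutant is read from them. A het peak was overlapped by 1611 of 1893 (85.1%, CI 83.4 to 86.6%), against 93.9% of all shared peaks tested. At like mutant height the set had a het peak less often: at mutant pileup 20 to 24, 598 of 784 (76.3%, CI 73.2 to 79.1%) against 85.8% (CI 85.2 to 86.3%) of the others. At like WT height it had one more often: with 7 to 10 WT fragments, 232 of 303 (76.6%, CI 71.5 to 81.0%) against 36.2% (CI 35.3 to 37.1%), and with 17 to 33, 337 of 352 (95.7%) against 87.3%. The rule takes every peak of 20 or more mutant fragments with 7 to 10 in WT, so the others in that bin all had under 20, with a median of 11, and their contrast with the set came with the choice. Het heights followed the same order, with median het pileups of 17 in the set and 24 in the others at mutant pileup 20 to 24, and of 17 and 14 at 7 to 10 WT fragments. Peaks picked for a high mutant and a low WT value are placed between by any other list that resembles both, so these values cannot be read as a dose effect of Chd7.

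**Figure D3:**
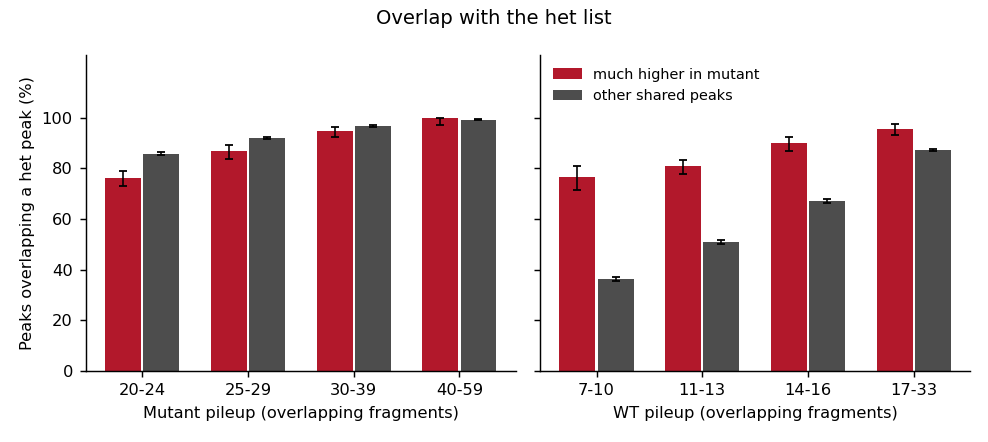
Share of shared peaks that overlap a het peak, in percent, with Wilson 95% intervals, for the set (red) and the other shared peaks (grey), binned by mutant pileup (left) and WT pileup (right). At equal mutant pileup the set lies below the others up to 30 to 39 fragments, for instance 76.3% against 85.8%, and at equal WT pileup it lies above them, for instance 76.6% against 36.2%, where the others had under 20 mutant fragments.

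The largest ratio was in an intron of the long non-coding gene AC141639.4, with 37 mutant, 9 WT and 16 het fragments and a ratio of 4.06 (95% counting interval 1.92 to 9.57). Next came an intergenic peak at chr10:12174165-12174895, 143203 bp from the TSS of Gm48722, with 58 mutant, 16 WT and 48 het fragments and a ratio of 3.58 (2.03 to 6.67). It was the tallest mutant peak among the 12 highest ratios, and these were the 2 peaks of the set whose interval lay above the threshold itself. An intron of Cfap54, a gene of the ciliary axoneme, held 32 mutant, 9 WT and 22 het fragments at chr10:92854483-92855097.

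Introns of Cntn1, Tenm4 and Sgcd were also among the 12 highest ratios. Cntn1 encodes contactin 1, an adhesion molecule of axons, and its intronic peak at chr15:92322234-92322525 had 34 mutant, 10 WT and 21 het fragments and a ratio of 3.36 (1.62 to 7.62). This peak was the first of 3 peaks of the set within 26.0 kb, among 4 shared peaks tested there. Tenm4 encodes a teneurin, a transmembrane protein of synaptic partner matching, and its intron at chr7:96336406-96336713 had 39 mutant, 13 WT and 32 het fragments and a ratio of 2.96. Sgcd, which encodes delta-sarcoglycan, had 28 mutant, 9 WT and 14 het fragments in an intron. In 12 of the 12 highest ratios the het rank lay between the WT and the mutant rank, against 991 of the 1611 peaks of the set with a het peak. The 12 were picked for a wide gap between mutant and WT, so no dose effect can be read from this.

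The tallest mutant peak of the set was in an intron of Fat3, an atypical cadherin of neurons, at chr9:16212027-16212523, with 59 mutant, 33 WT and 65 het fragments and a ratio of 1.77 (1.13 to 2.79). An intergenic peak 106707 bp from the TSS of Spag17 had 57 mutant, 25 WT and 27 het fragments, the lowest het value of the 8 tallest. An intron of Klhl29 had 53 mutant, 24 WT and 50 het fragments, and one of Celf4, an RNA-binding protein of neurons, had 54, 29 and 46. The other 4 lay between genes.

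**Figure D4:**
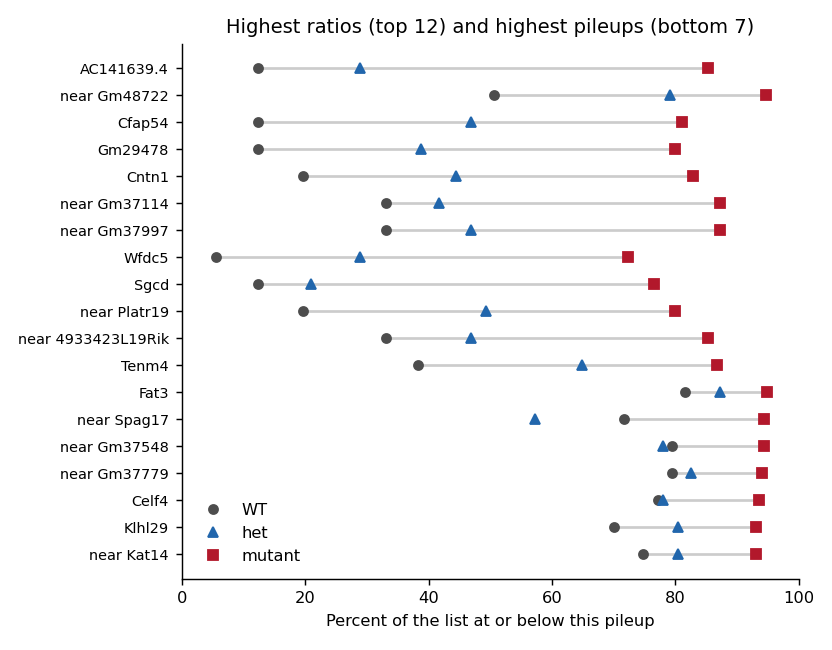
Rank of the pileup within the WT (circles), het (triangles) and mutant list (squares), as the percent of that list's peaks at or below it, for the 12 highest ratios and the 8 highest mutant pileups, 1 of which is in both. Near Gm48722 the WT rank was 50.6 and the mutant rank 94.6, and near Spag17 the het rank lay below the WT rank.

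Of the 1893 peaks, 972 were assigned to a protein-coding gene (gene body, 5 kb upstream or 1 kb downstream) and 733 to no gene. Among 15238 protein-coding genes with a shared peak tested, 883 held a peak of the set, 770 of them 1, 95 of them 2, and 18 of them 3 or more. Rbfox1, a neuronal splicing regulator in a gene of 1530 kb, held the most, 6 of its 40 shared peaks (15%). All 6 were intronic, with 20 to 32 mutant and 11 to 17 WT fragments and ratios of 1.80 to 1.98, and 4 of them lay within 106 kb. The lower ends of their 95% counting intervals ran from 0.82 to 1.03. Pdzd2, a PDZ-domain protein, held 4 of its 17, all within 84.2 kb, a stretch in which 5 shared peaks were tested. Their mutant values were 27, 25, 23 and 28 fragments, and those of WT 15, 14, 12 and 14, with lower ends of the counting intervals from 0.882 to 1.01. Ptprn2, a phosphatase-like protein of secretory vesicles, held 4 of 40.

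Other genes held 3 among fewer shared peaks. Taf3, a subunit of the general transcription factor TFIID, held 3 of its 5 shared peaks, with 23, 26 and 29 mutant against 10, 11 and 12 WT fragments and ratios of 2.27, 2.33 and 2.39. Pid1, which binds the LRP1 receptor, held 3 of 7, with 23, 21 and 40 mutant against 8, 9 and 17 WT fragments, of which the first 2 lay next to each other. Tjp1, which encodes the tight junction protein ZO-1, held 3 of 9, Pkhd1 3 of 13, Lrch1 3 of 14 and Etl4 3 of 17. The Gm20388 model held 5 of 231, but it spans 73 other protein-coding genes, so that its peaks also lie in Crispld2, Car5a and Acsf3. At Gpd2, 3 neighbouring shared peaks out of 3 within 83.3 kb were in the set. These genes were named for their counts, with no test. Most peaks stood alone: 1683 had no other within 50 kb, and 210 were in 92 pairs, 6 triplets and 2 groups of 4. By chromosome, 2.15 to 3.83% of the shared peaks entered.

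At promoters, the highest ratio at a protein-coding TSS was at Rbms3, an RNA-binding protein, with 48 mutant, 17 WT and 34 het fragments and a ratio of 2.79 (1.57 to 5.17). Mlc1, a membrane protein of astrocyte endfeet, had 23 mutant, 9 WT and 10 het fragments, and Itpr2, an intracellular calcium channel, had 22 and 9 with no het peak. Next by ratio were the start sites of 9330159F19Rik (2.37), Eml6 (2.33) and Lrrc17 (2.3). Myt1l, a zinc finger factor of neuronal identity, had 25 mutant, 11 WT and 20 het fragments at 232 bp from a start site. Ndufaf1, an assembly factor of mitochondrial complex I, had 34, 15 and 34. In all, 92 of the 1893 (4.86%) were nearest to a protein-coding TSS within 1 kb, against 24.1% of all shared peaks tested.

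Granule progenitor factors, immediate early genes and genes of cell cycle exit and p53 held no peak of the set. Of 199 shared peaks at 24 granule progenitor factors, such as Atoh1, Pax6 and the Zic genes, 0 entered, which allows a share of up to 1.51% from counting alone, against 2.86% of all shared peaks tested. No peak of 60 or more fragments entered at any gene and few at a TSS did, so these shares are not of like peaks: of the 199, 170 had under 60 fragments, and 122 of these lay away from a TSS. Immediate early genes had 0 of 67 (up to 4.48%) and genes of cell cycle exit and p53 0 of 76 (up to 3.95%), and 2.86% cannot be told from 0 at these numbers. For the granule progenitor factors the median ratio was 1.03, beside 1.07 over all shared peaks tested.

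In the hedgehog pathway 3 of 115 shared peaks (2.61%, CI 0.891 to 7.39%) were in the set. Gli3, the transcription factor that acts mostly as the repressor of the pathway, held 2 intronic peaks, with 32 and 22 mutant, 14 and 12 WT, and 20 and 20 het fragments. Ptch1, the hedgehog receptor and a target of the pathway, held 1, with 32 mutant and 18 WT fragments and 42 in het. Among genes of neuronal differentiation 10 of 333 (3%, CI 1.64 to 5.44%) entered, at Cadps2, Cntn1, Nrcam, Plxna2, Reln, Syt1 and Unc5c. Plxna2, a semaphorin receptor, had 47 mutant, 19 WT and 31 het fragments in an intron and a ratio of 2.44. Markers of glia and other cell types had 3 of 85 (3.53%), at Pdgfra, Nes and Gad2, and patterning factors 3 of 81 (3.70%), at Lmx1a, Pax3 and Pax5. The interval of each of these 4 shares held the 2.86% of all shared peaks tested.

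Genes lower by RNA-seq in homozygous mutant GNPs held 15 peaks of the set among 935 shared peaks (1.6%, CI 0.975 to 2.63%), at 10 genes, against 2.86% of all shared peaks tested, which lies above that interval. Of the 935, 793 had under 60 fragments, and 660 of these lay away from a TSS. The 2 shares are therefore not of like peaks, and no depletion is read from them. The median ratio of the 935 peaks was 1. That list was chosen by the study on cells of the same genotypes, and is not independent of them. Reln, the secreted glycoprotein that positions Purkinje cells, held an intronic peak at chr5:21948055-21948299 with 50 mutant, 21 WT and 40 het fragments and a ratio of 2.35 (1.39 to 4.12). Plcb1, a phospholipase of receptor signalling, had 28, 11 and 15 in an intron, and Dtna, a dystrophin-associated protein, 21, 9 and 18. That these peaks were higher in mutant was fixed by the rule. Genes activated by both Chd7 and the topoisomerase Top2b in cultured granule neurons held 66 of 2122 (3.11%, CI 2.45 to 3.94%), at 44 genes, with an interval that holds 2.86%. Arid1b, a subunit of the BAF remodelling complex, held one of the taller of them, with 50 mutant, 18 WT and 27 het fragments and a ratio of 2.74.

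At Chd7 itself, 24 autosomal mutant peaks overlapped a WT peak, 18 of them with 20 or more fragments, and their ratios ran from 0.605 to 2.51 with a median of 1.04. A single one entered the set, in an intron at chr4:8781428-8781612, with 28 mutant and 11 WT fragments and no het peak. The promoter peak had 52 mutant and 40 WT fragments, a ratio of 1.28. The deleted exons are not given in the sources used here, so these peaks do not check the genotype.

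At Atoh1, no peak entered, but the peak 2.40 kb downstream of the gene at chr6:64733650-64735060, where the known Atoh1 enhancer lies, came close. It had 121 mutant, 72 WT and 218 het fragments and a ratio of 1.66 (1.23 to 2.25). Among 8390 shared peaks with 60 or more WT fragments, this was the highest ratio, while their median was 1 and their 99th percentile 1.23. The het over WT pileup per tag was 4.93 at this peak, where the median of those peaks was 2.46 and the 99th percentile 3.09, and since het fragments were extended further the ratio has meaning only beside these. The promoter-side peaks of Atoh1 had ratios of 1.21 and 1.17. Both groups in which the peak was high carried the Atoh1-Cre transgene, which is driven by an Atoh1 enhancer, and the floxed WT did not. The part of the transgene in these values was not tested. The locus was among the genes to be described whatever their ratio, and the place of the peak among the 8390 was found after its value was seen.

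In base composition, the set was poorer in GC than other shared peaks. Median GC within 200 bp of the summit was 48.5% (95% interval of the median 48.5 to 49.0%), against 53.5% over all shared peaks tested and 52.0% over the others of mutant pileup 20 to 29. Away from TSS it was 48.5% against 51.5% for the others with under 60 mutant fragments. Repeat-masked letters made up a median of 6.25% of the mutant peak in the set (interval 5.93 to 6.75%) and 5.29% over all shared peaks tested. Away from TSS the medians were 6.21% and, for the others with under 60 mutant fragments, 5.56%. In the set, 31 of 1893 peaks (1.64%) were masked over more than 50% of their length, against 1.49% of all shared peaks tested. The order turned with the comparison: it was 2.17% in the others of mutant pileup 20 to 29. Away from TSS the shares were 1.71% in the set and 1.89% in the others. Mutant and WT libraries differed in tag size and the part of this in the GC difference was not tested.

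Motif shares were counted in the same 200 bp on both strands. CAGATG was in 496 of 1893 peaks (26.2%, CI 24.3 to 28.2%), against 28.0% (CI 27.6 to 28.3%) of all shared peaks tested. Both values include promoters, and away from TSS the shares were 26.7% (CI 24.7 to 28.8%) for the set and 33.7% (CI 33.3 to 34.2%) for the others with under 60 mutant fragments. CAGCTG, another E-box, was in 26.1% (CI 24.1 to 28.2%) and 28.4% of these. TAATTA was in 9.52% (CI 8.23 to 11%) and 5.99% (CI 5.77 to 6.22%). TTGGCA, part of the site of nuclear factor I, was in 527 of 1755 peaks of the set away from TSS (CI 27.9 to 32.2%) and in 26.3% of the others. ACAAAG, a Sox-type sequence, was in 18.1% and 15.5%, GGAATG, read by Tead factors, in 13.3% and 10.8%, and TGTTTAC, a forkhead sequence, in 3.48% and 2.54%. GGGCGG, the GC box of Sp factors, was in 4.16% and 7.20%. In the same comparison, GTTGCCA was in 6.32% and 5.13%, CCTGCTG in 10.6% and 14%, AGGGGGC in 4.22% and 6.06%, CCGGAAG in 0.912% and 1.29% and GCATGCGC in 0.114% and 0.511%. TGANTCA was in 6.15% (CI 5.12 to 7.38%) and 6.48%, and AAGATGGC in 1.48% (CI 1.01 to 2.16%) and 1.52%. With promoters included, the shares of the set and of all shared peaks tested were 6.23% and 5.56% for TGANTCA and 1.37% and 1.88% for AAGATGGC, so that the order for TGANTCA turns with the comparison.

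The shares of both E-boxes, of TAATTA and of TTGGCA were then followed over the whole range of ratios, away from TSS and with summits within 100 bp. CAGATG fell from 58.7% (CI 50.4 to 66.6%) of 138 peaks with WT at least 75% above mutant to 36.8% of 15192 at 0.9 to 1.1 and 26.6% of 5270 at 1.3 to 1.5, and was level from there, with 26.7% from 1.5 to the threshold and 27.1% (CI 25 to 29.4%) of 1574 in the set. With the mean of both pileups held at 15 to 25, it fell from 48.9% to 31.3% at 0.9 to 1.1 and was 26.9% (CI 24.5 to 29.4%) past the threshold. In peaks of 46 to 54% GC with 20 or more mutant fragments, the values in these 3 bins were 68.4%, 39.2% and 27.5%. The set thus had the CAGATG share of the peaks just below its threshold. CAGCTG did not follow this course, with 24.6% (CI 18.2 to 32.4%) in the lowest bin, 29.7% at 0.9 to 1.1 and 26.3% (CI 24.2 to 28.5%) in the set, and 24.3 to 27.1% in all bins at a mean pileup of 15 to 25. TAATTA was level up to a ratio of 1.3, at 5.54 to 5.80%, and rose to 7.02%, 8.24% and 9.21% (CI 7.88 to 10.7%) in the last 3 bins. At a mean pileup of 15 to 25 it was higher at both ends, with 7.54% (CI 5.7 to 9.91%) in the lowest bin, 5.12 to 5.31% from 0.75 to 1.3 and 8.5% past the threshold. In peaks of 46 to 54% GC it was 5.80% (CI 5.30 to 6.35%) at 0.9 to 1.1 and 7.84% (CI 6.19 to 9.89%) in the set, and these intervals overlapped. TTGGCA at 20 or more mutant fragments was higher at both ends, with 34.1% (CI 26.7 to 42.3%) in the lowest bin, 25% at 1.3 to 1.5 and 28.7% (CI 26.5 to 31%) in the set. At a mean pileup of 15 to 25 it was 24.9% (CI 21.6 to 28.5%) in the lowest bin, 23.6% at 0.9 to 1.1 and 28.6% (CI 26.1 to 31.2%) past the threshold. Whether its share was particular to the set thus turned with the range of heights. Median GC was 48.5% at both ends of the range and 52.5% at 0.9 to 1.1.

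**Figure D5:**
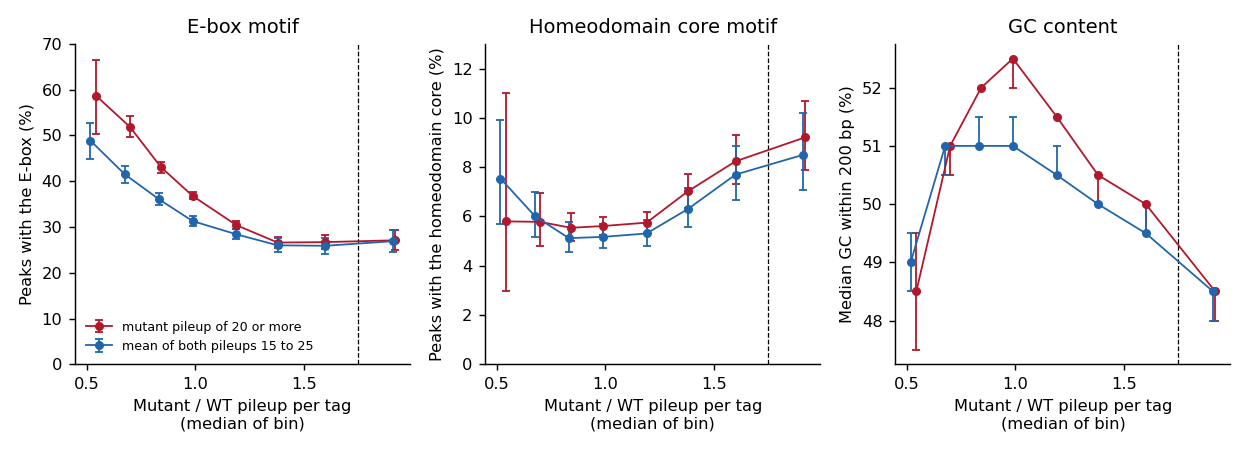
Share of peaks with CAGATG (left) and TAATTA (middle), in percent with Wilson 95% intervals, and median GC with its 95% interval (right), in bins of the mutant over WT pileup per tag drawn at the bin's median, for peaks away from TSS with summits within 100 bp. The dashed line marks the threshold of the set, and the last point of each line holds the peaks past it: CAGATG goes from 58.7% to 27.1% (red, mutant pileup of 20 or more) or from 48.9% to 26.9% (blue, mean pileup of 15 to 25), and TAATTA reaches 9.21% or 8.50%.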

How the data were processed

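ATAC-seq libraries of P7 GNPs (3 WT, 3 mutant, 2 het) were used as 3 narrow-peak lists that the authors called with MACS2 2.1.0.20150731 on pooled libraries at a q-value cutoff of 0.05. Per the file headers, WT and mutant alignments came from a STAR folder and het from a bowtie folder. The submitters' processing notes name Trim Galore 0.4.1, STAR 2.5.0b, Bowtie 1.0.0 and Picard 1.139. Pileup is the signal deposited at each summit, a whole number of overlapping extended fragments without scaling to depth. The deposited ratio of pileup to local background, fold enrichment, was used as an alternative alone. The deposited −log10 q-values were not used to choose peaks. All columns were assigned to a group, and 0 were left out.

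Peaks were compared with bedtools 2.31.1 at a minimum overlap of 1 bp, and heights were divided by the tags in the headers. The rule took a mutant pileup of 20 or more and a ratio of 1.75 or more. Genes and TSS came from GENCODE release M21, and sequence from RefSeq GRCm38.p6, the build of the lists. Older gene symbols were matched through RefSeq synonyms, which gave 142 of 151 genes lower by RNA-seq, 197 of 203 genes activated by Chd7 and Top2b, and all genes of the other lists. Wilson 95% intervals of shares, order-statistic intervals of medians and exact binomial intervals of ratios cover counting error only, since PCR copies and neighbouring peaks are not independent. With 1 pooled list per genotype there was no test. The scripts were tested on simulated lists. The simulated peaks were far taller than those of the set, so this checked the code and not the rate of false calls at these heights. The set and the gene lists were chosen with earlier results of these data known. Named peaks were the 12 highest ratios, the 8 highest pileups, those of the genes with the most peaks of the set, up to 3 per gene list, those nearest the threshold, and all at Chd7 and Atoh1. Promoter peaks with the highest ratios, Gpd2 and the position of the Atoh1 peak among tall peaks were chosen after their values were seen, as were the bins of ratio, the mean-pileup and GC ranges and the comparison away from TSS. Python 3.11.15, numpy 2.4.6, pandas 2.3.3, scipy 1.17.1 and matplotlib 3.10.9 were used.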

Additional observations from a re-analysis of the deposited data

How the results depend on the processing

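No paired analysis was possible because each list pools the libraries of its group, and for the same reason no replicate could be left out. The number of peaks in the set, 1893 as reported, was 1212 by fold enrichment, 128 at a mutant pileup of 40 or more, 5474 at a ratio of 1.5 or more and 680 at 2 or more, and within 1.5 times of 1893 under the other 4 settings. The share at a TSS moved from 7.29% to 4.97% with TSS within 500 bp and 9.21% at a ratio of 1.5, and was below the share of all shared peaks in 9 of 9 settings. The share with a het peak moved from 85.1% to 76.1% at a mutant pileup of 10 or more, 100% at 40 or more and 86.9% at a ratio of 1.5, and was below that of all shared peaks in 8 of 9 settings, the exception being a pileup of 40 or more (99.5%). Median GC moved from 48.5% to 49.5% at a ratio of 1.5 and 48.0% at 2, below all shared peaks in 8 of 8. The median masked percent moved from 6.25% to 5.59% at a ratio of 2, above all shared peaks in 8 of 8. The CAGATG share moved from 26.2% to 17% within 100 bp of sequence and 28.9% at a pileup of 40 or more, and was below that of all shared peaks in 8 of 9, the exception being a pileup of 40 or more (25%). Counting the set away from TSS, chosen after seeing the data, gave 26.7%. The cause of these shifts was not tested. Pileups of 7 to 33 fragments in WT limit the precision of each ratio, and none of the intervals speaks to differences between mice.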
